A study of Chlamydomonas reinhardtii with 2 samples.

Results

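The cell wall of the unicellular green alga Chlamydomonas reinhardtii is built of layered hydroxyproline-rich glycoproteins and holds no cellulose. Pherophorins are extracellular matrix glycoproteins of the volvocine algae, first described in the multicellular relative Volvox, and the VSP proteins are serine- and proline-rich wall proteins of vegetative cells. Matrix metalloproteases cut such glycoproteins. The best known of them, gametolysin (MMP1), strips the wall from gametes before they fuse.

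The genes described here are the nuclear reference genes whose symbol in the deposited tables begins with PHC, GP, VSP, HRP, MMP or SED followed by a digit. There were 61 of them among 17611 nuclear reference genes. They comprised 30 pherophorin genes (PHC), 5 VSP wall glycoprotein genes and 26 matrix metalloprotease genes (MMP), and 0 genes carried a GP, HRP or SED symbol of this form. Coordinates are those of the files, where the gene identifiers end in a tag for version 6.1 of the CC-4532 annotation. Of the 61 identifiers, 8 carry a chromosome or scaffold number other than the chromosome on which the files place the gene. VSP4 (Cre09.g391801), for example, lies on chromosome 2.

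RNA was sequenced from 1 library of strain CC5325 and 1 library of strain CC125, both labelled wild type. The labels do not say whether either strain has a complete cell wall. Both strains were grown under the same conditions, in acetate-containing TAP medium on a shaker at 25 °C under 20 μmol photons per m2 per s. The labels name ribosomal RNA depletion of total RNA, and polyA RNA as the molecule. Each strain gave a single library, so nothing here was checked against replicates and the strains were compared with counting error alone, without p-values.

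The libraries were shallow over nuclear genes. Coverage, deposited as the mean read depth over a gene, was converted to estimated reads of 150 bases by multiplying with the gene's span. These estimates are no bounds. Spans include introns, which makes the estimate larger, yet some detected genes came out at less than 1 read. Nuclear genes held an estimated 106556 reads in CC5325 and 32002 reads in CC125. A gene without a symbol, Cre08.g374100, alone took 28.8% of these in CC5325 and 60.3% in CC125. Outside the 20 most abundant nuclear genes, an estimated 64757 reads remained in CC5325 and 11071 in CC125. Intervals of reads and of ratios are exact at 95%, cover counting error only, were made from estimated reads rounded to whole numbers, and hold only as far as those estimates do. For a gene listed at 0, the exact interval still allows an expected count of up to 3.69 reads at this depth.

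Of the 30 pherophorin genes, 16 had some coverage in both strains, whereas 14 of the 26 matrix metalloprotease genes (53.8%) had none in either, beside 17.3% of all nuclear genes in both and 43.3% in neither. With at least 1 estimated read required, 11 pherophorins remained in both and 17 metalloproteases lay in neither. Shares of all nuclear genes were not taken under that stricter rule, so these counts cannot be set against the 17.3% and 43.3%. Nor were shares in both or in neither taken for genes with a symbol. A gene was taken as detected when its coverage was above 0. In CC5325, 40 of the 61 genes (65.6%) were detected, beside 53.2% of all nuclear genes and 70% of the nuclear genes that carry a symbol. In CC125, 27 of the 61 (44.3%) were detected, beside 20.9% of all nuclear genes and 32.6% of those with a symbol. Genes with a symbol were thus detected more often in either library, and they are the nearer comparison for genes chosen by symbol. Both libraries detected 23 of the 61 genes, CC5325 alone 17, CC125 alone 4 and neither 17. Among all nuclear genes these shares were 17.3% in both, 35.8% in CC5325 alone, 3.51% in CC125 alone and 43.3% in neither.

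Shares of a family are given with exact 95% binomial intervals over its genes, as a description only, since the genes are related and share a library. The intervals take the genes as independent, so setting them beside a background share is no test. Among the pherophorin genes, 26 of 30 were detected in CC5325 (86.7%, interval 69.3 to 96.2%) and 18 of 30 in CC125 (60%, interval 40.6 to 77.3%). The share of symbol-bearing genes was 70% in CC5325, within that interval, and 32.6% in CC125, below it. Of the 18 pherophorins detected in CC125, 11 reached 1 estimated read, and no background share was taken under that rule. PHC30 and PHC66 were listed at 0 in both libraries. Of the VSP genes, 4 of 5 were detected in CC5325 and 2 of 5, VSP4 and VSP6, in CC125, and VSP7 was listed at 0 in both. Of the metalloprotease genes, 10 of 26 were detected in CC5325 (38.5%, interval 20.2 to 59.4%) and 7 of 26 in CC125 (26.9%, interval 11.6 to 47.8%). The CC5325 interval lies below the 70% of symbol-bearing genes but holds the 53.2% of all nuclear genes, and the CC125 interval holds both shares of that library. The 14 metalloprotease genes listed at 0 in both libraries were MMP2, MMP5, MMP7, MMP10, MMP11, MMP15, MMP17, MMP20, MMP21, MMP22, MMP23, MMP24, MMP25 and MMP32. The median span was 6195 bp for the metalloproteases, 4037 bp for the pherophorins and 5655 bp for the VSP genes, and at equal coverage a longer gene collects more reads.

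**Figure D1:**
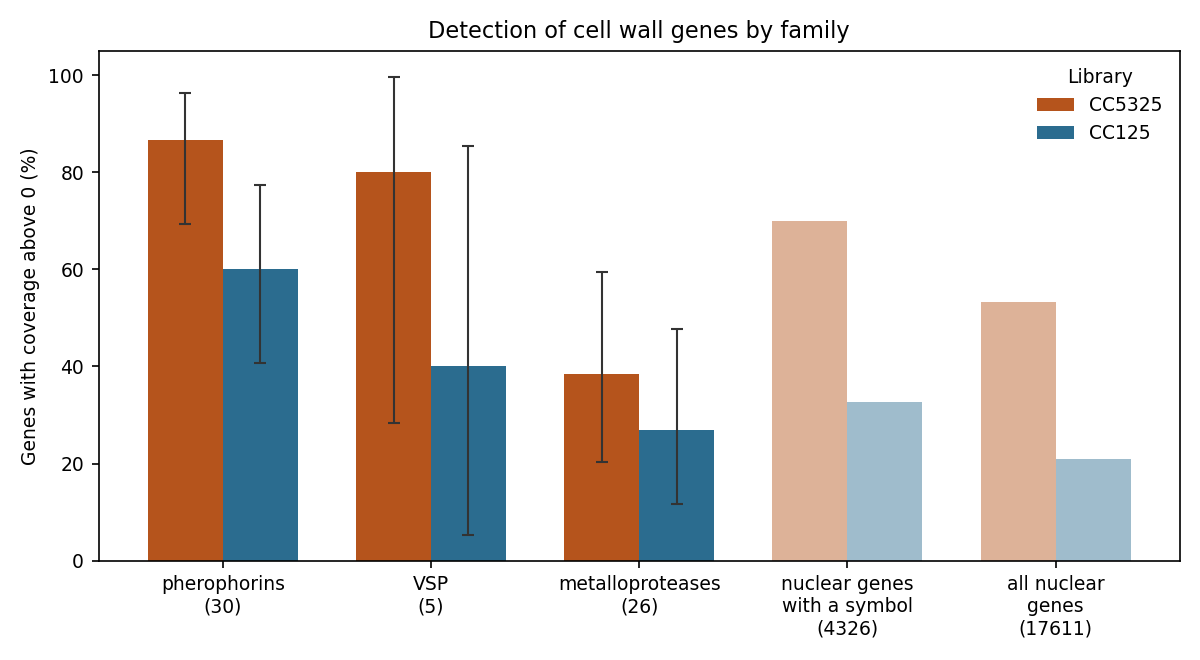
Percentage of genes with coverage above 0 (y axis) in CC5325 and CC125 for the 3 families, with exact 95% binomial intervals as error bars, and in paler bars for the nuclear genes with a symbol and for all nuclear genes. The number of genes stands in brackets. Pherophorins reached 86.7% in CC5325 and 60% in CC125, and metalloproteases 38.5% in CC5325 and 26.9% in CC125.

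All 61 genes had low coverage and TPM in absolute terms, as did most nuclear genes. By coverage, 16 of the 61 in CC5325 and 14 in CC125 ranked in the upper 10% of nuclear genes. The same share was not taken for genes with a symbol. Median coverage of the detected members was 0.112 in CC5325 and 0.0456 in CC125, beside 0.0681 and 0.0353 for all detected nuclear genes. Pooled over the family, the pherophorins held an estimated 255 reads in CC5325 (interval 225 to 288) and 49.2 in CC125 (36.3 to 64.8). The VSP genes held 50.5 (38.0 to 67.1) in CC5325 and 8.67 (4.12 to 17.1) in CC125, and the metalloproteases 35.6 (25.2 to 49.8) in CC5325 and 11.8 (6.201 to 21.0) in CC125. Pherophorins therefore made up 74.7% of the reads of the 61 genes in CC5325 and 70.6% in CC125. Median coverage over all members of a family, those at 0 included, was 0.109 reads per base in CC5325 and 0.0181 in CC125 for pherophorins, and 0 in both for metalloproteases. Over all nuclear genes it was 0.0154 in CC5325 and 0 in CC125. Together the 61 genes took 0.526% of the nuclear reads outside the 20 most abundant genes in CC5325 and 0.630% in CC125. Of all nuclear reads they took 0.320% in CC5325 and 0.218% in CC125, the opposite order. The deposited TPM, a length-scaled relative abundance, was at most 0.573 in CC5325 and 0.3004 in CC125, both for PHC2. None of the 61 genes had a mean of 1 TPM, which 0.886% of nuclear genes reached, so that 0 genes could pass a 2-fold rule on the log2(TPM + 1) scale with that minimum. Of the 156 nuclear genes that reached it, 38.5% were at least 2-fold higher in CC5325 and 4.49% at least 2-fold lower.

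PHC2, VSP4 and PHC8 had the most reads in CC5325, 31.8% of those of the set, and PHC2, PHC31 and VSP4 in CC125, 36.5%. The 5 genes with the most reads held 43.8% of the reads of all 61 in CC5325 and 50.6% in CC125, and the 10 with the most held 66.7% in CC5325 and 72.1% in CC125. In all, 21 of the 61 genes (34.4%) reached 5 estimated reads over both libraries. This compares with 16% of all nuclear genes and 29.6% of those with a symbol.

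PHC2 (Cre14.g620600, chromosome 14, 1945859 to 1949990, minus strand), a pherophorin gene, had the highest coverage of the 61 in both libraries. Its coverage was 1.46 reads per base in CC5325, from an estimated 40.3 reads, and 0.346 in CC125, from an estimated 9.53 reads. By coverage it ranked 271st of the 17611 nuclear genes in CC5325 and 229th in CC125. PHC15 (Cre09.g396100, chromosome 9, 2105670 to 2108334) stood next in CC5325 at 1.07 reads per base, against 0.167 in CC125. PHC31 (Cre17.g710300, chromosome 17, 1970592 to 1974205) stood at 0.755 in CC5325 and 0.344 in CC125. In CC125 only PHC2 had a higher coverage among the 61, and PHC31 ranked 434th in CC5325 and 230th in CC125.

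Among the wall glycoprotein genes proper, VSP4 (chromosome 2, 7348858 to 7354512) was the highest. Its coverage was 1.004 reads per base in CC5325, from an estimated 37.8 reads, and 0.202 in CC125, from an estimated 7.602 reads, at rank 341 in CC5325 and rank 364 in CC125. Its deposited CC5325 TPM of 0.554 is 1.41 times what its coverage gives. VSP4 is the 1 gene of the set where TPM exceeded the coverage-based value by more than 1.1 times. Its deposited CC5325 FPKM, 0.244, also lies above its coverage per aligned Gb, 0.173. Ratios of VSP4 and of the pooled VSP genes given below use coverage, unless deposited TPM is named. VSP6 (Cre09.g392319), which lies near VSP4 on chromosome 2, stood at 0.211 in CC5325 and 0.0237 in CC125. VSP3, at 0.118, and VSP1, at 0.0456, were detected in CC5325 and listed at 0 in CC125, where a count of 0 allows an expected count of up to 3.69 reads.

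The metalloproteases were lower. MMP13 (Cre03.g144564, chromosome 3) led them in CC5325 at 0.329 reads per base, against 0.0370 in CC125. MMP1 (Cre17.g718500, chromosome 17, 2831714 to 2837052), the gametolysin gene, led them in CC125 at 0.104 reads per base, against 0.190 in CC5325. MMP3 stood at 0.111 in CC5325 and 0.0209 in CC125, and MMP29 at 0.106 in CC5325 and 0.0528 in CC125. MMP29 overlaps MSD2 on the opposite strand by 653 bp. Another reference gene overlaps 21 of the 61, among them VSP4, VSP6 and MMP29 of those with at least 5 reads. The share of overlapping genes over all nuclear genes was not taken. Where the partner lies on the opposite strand, reads in the overlap cannot be told apart without strand. Other partners lie on the same strand, where strand could not separate the reads. MMP6 was near the floor in both, at 0.0332 in CC5325 and 0.0236 in CC125.

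**Figure D2:**
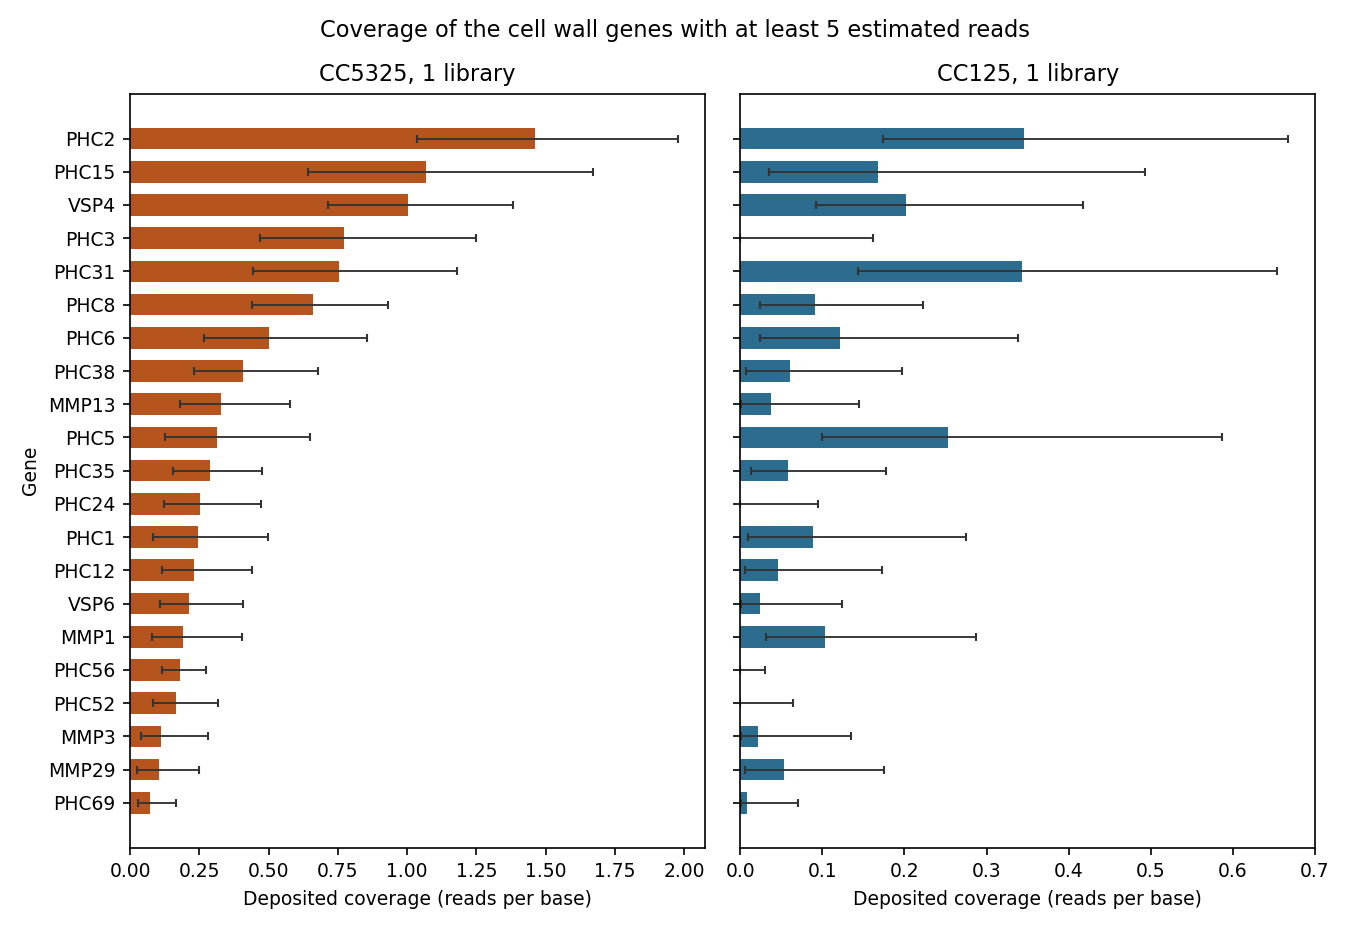
Deposited coverage in reads per base (x axis, a scale of its own for each library and not adjusted for depth) of the 21 genes with at least 5 estimated reads over both libraries, CC5325 on the left and CC125 on the right. Bars are single libraries and error bars are exact 95% Poisson intervals of the estimated reads. PHC2 leads both panels at 1.46 in CC5325 and 0.346 in CC125, and PHC3, PHC24, PHC56 and PHC52 are listed at 0 in CC125.

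The order of the genes was similar in both libraries, within wide counting error. Spearman's rho between the coverages was 0.62 over the 61 genes and 0.82 over the 23 detected in both, as a description across genes, which are not independent. By reads rather than coverage, PHC2 and VSP4 led in CC5325. Their Poisson intervals overlapped (28.6 to 54.5 reads for PHC2 and 26.9 to 52.2 for VSP4), so their order by reads was not resolved at this depth. The remaining 40 genes stayed under 5 reads. Of these, 23 were detected in at least 1 library, with a coverage of at most 0.118 in CC5325 (VSP3) and 0.0974 in CC125 (PHC22). PHC4 stood at 0.0901 in CC5325 and 0.0341 in CC125, and PHC26 at 0.0296 in CC5325 and 0.0140 in CC125. MMP8, MMP9, MMP14, MMP19, MMP33 and PHC47 were detected in CC5325 alone, with estimates of up to 1.72 reads. Under 1 estimated read lay behind 8 of the 40 detections in CC5325 and 8 of the 27 in CC125.

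Whether the set was higher in CC5325 depended on the scale. Coverage per aligned base, the scale of the deposited FPKM, divides by 5.81 Gb in CC5325 and 3.18 Gb in CC125. On it the 61 genes together stood 2.68-fold higher in CC5325 (interval 2.06 to 3.50). Divided by all nuclear reads they stood 1.47-fold higher (1.13 to 1.92). Divided by the reads in nuclear genes outside the 20 most abundant, they stood at 0.836-fold (0.642 to 1.09). The pooled nuclear genes outside these 20 stood 3.20-fold higher in CC5325 per aligned base themselves, a shift of 1.68 on the log2 scale, and all nuclear genes 1.82-fold, a shift of 0.87. The interval of the 61 genes per aligned base holds the 3.20-fold of the nuclear genes outside these 20. Per aligned base the pherophorins were 2.83-fold higher (2.09 to 3.95) and the VSP genes 3.19-fold higher (1.51 to 7.17), against 0.885-fold (0.653 to 1.23) and 0.997-fold (0.472 to 2.24) relative to nuclear reads without the 20 most abundant genes. The metalloproteases were 1.65-fold higher per aligned base, with an interval of 0.836 to 3.47 that holds equality. They stood at 0.515-fold (0.261 to 1.08) relative to nuclear reads without the 20 most abundant genes. In bulk RNA, fewer cells that express a gene and less RNA per cell cannot be told apart.

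Of the 21 genes with at least 5 reads, 16 (76.2%) had at least 2-fold higher coverage per aligned base in CC5325 and 0 at least 2-fold lower. Among all nuclear genes with at least 5 reads, 74.9% were at least 2-fold higher and 3.63% at least 2-fold lower, so the share in the set lay near the background. The interval lay above 1 for 9 of the 21 genes per aligned base and for 0 of them relative to nuclear reads without the 20 most abundant genes. On this nuclear scale it lay below 1 for 1 gene, PHC5. Intervals were not counted over all nuclear genes, so these counts have no background share. The pooled nuclear genes outside the 20 most abundant were themselves 3.20-fold higher per aligned base, so the 9 genes are not read as a trait of the set.

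Of the 21 genes, 2 had an interval that leaves out the pooled ratio of 2.68, PHC5 below it and PHC56 above it. About 1 in 20 intervals at this level misses by counting error alone, so neither is read as a difference from the rest. PHC5 (Cre05.g238650, chromosome 5, 2420801 to 2424134) had a coverage of 0.314 in CC5325, from an estimated 6.98 reads, and 0.253 in CC125, from an estimated 5.62 reads. Per aligned base this is a ratio of 0.680 (interval 0.184 to 2.30), which leaves out the pooled ratio of the set. It ranked 989th in CC5325 and 304th in CC125. PHC31, at a ratio of 1.204 (0.510 to 3.28), and MMP1, at 1.004 (0.244 to 4.47), were also near equality, but their intervals hold the pooled 2.68.

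In the other direction, PHC56 (Cre16.g654600, chromosome 16, 1666235 to 1684424) had a coverage of 0.182 in CC5325, from an estimated 22.0 reads over a span of 18190 bp, but stood at 0 in the CC125 table. The interval of its ratio, from 3.001 upward, leaves out the pooled 2.68 but holds the 3.20 of nuclear genes. PHC3 (Cre06.g278162, chromosome 6, 3733847 to 3737259) had a coverage of 0.774 in CC5325, from an estimated 17.6 reads and at rank 421, but stood at 0 in the CC125 table. Its interval, from 2.41 upward, holds both the pooled ratio of the set and that of nuclear genes. PHC24 and PHC52, with an estimated 9.76 and 9.66 reads in CC5325, were also listed at 0 in CC125, with intervals from 1.23 upward.

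The 17 genes of the 21 that were detected in both libraries ranged from 0.680 for PHC5 to 5.21 for PHC69. PHC8 (Cre17.g717850) stood at 0.659 reads per base in CC5325 and 0.0913 in CC125, a ratio of 3.96 (1.448 to 16.1). PHC2 stood at 2.31 (1.08 to 4.91), VSP4 at 2.73 (1.196 to 6.46), PHC15 at 3.49 (1.02 to 18.3) and MMP13 at 4.88 (1.07 to 303). PHC38 (0.409 in CC5325 and 0.0606 in CC125), PHC35 (0.287 in CC5325 and 0.0579 in CC125) and PHC12 (0.232 in CC5325 and 0.0456 in CC125) had ratios between 2.72 and 3.70 with intervals that hold 1. So did VSP6 at 4.89 (0.779 to 238), from an estimated 1.07 reads in CC125. The 4 genes seen in CC125 alone, PHC18, PHC36, MMP4 and MMP31, had estimates of up to 1.23 reads, and a difference from CC5325 was not detectable at this depth. The 1.23 reads are those of MMP4, at a coverage of 0.0343. Same-strand neighbours overlap it over 943 bp and 441 bp, with CC125 coverages of 0.0386 and 0.0550. Which gene these reads belong to was not tested.

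**Figure D3:**
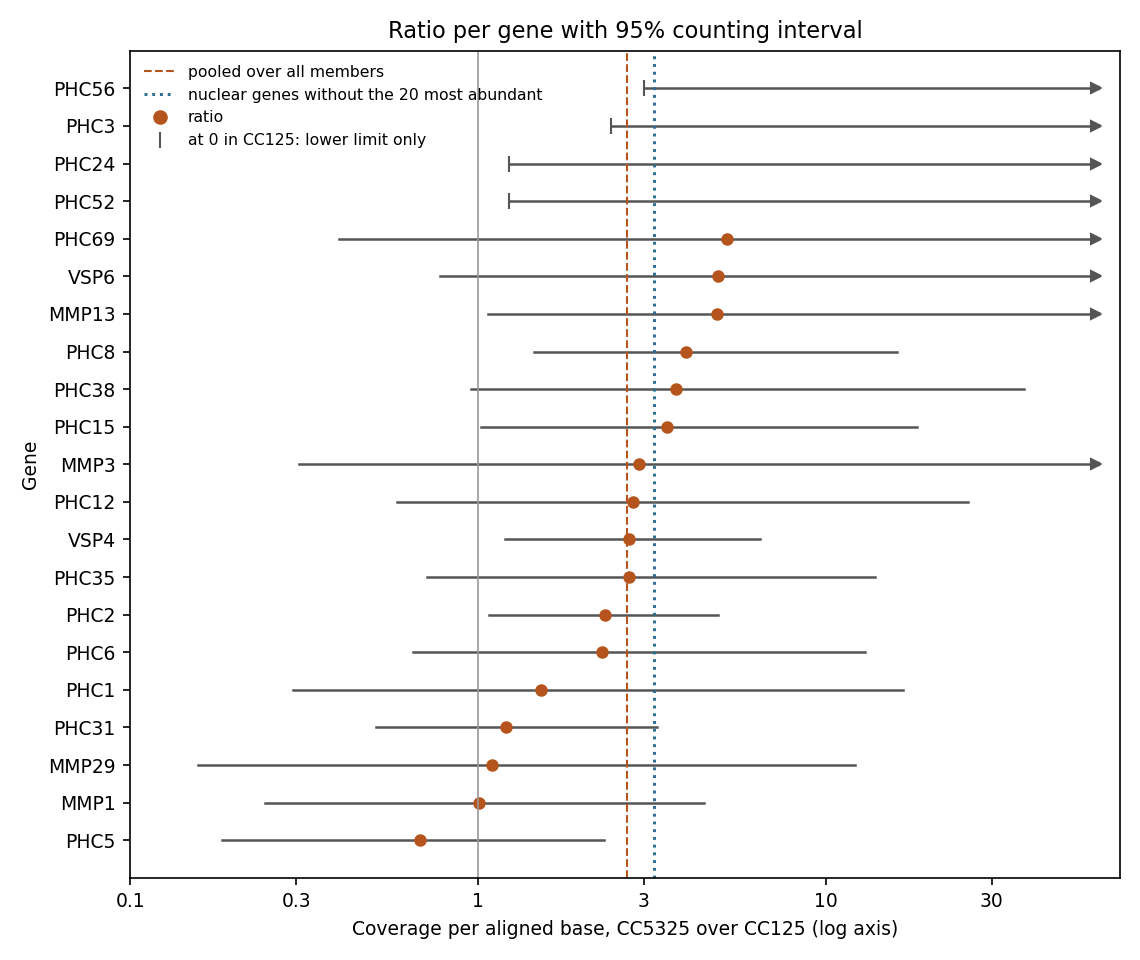
Ratio of coverage per aligned base, CC5325 over CC125 (log axis), for the 21 genes with at least 5 estimated reads. Filled points are ratios, the 4 genes listed at 0 in CC125 have a lower limit only, lines are 95% counting intervals and arrows mark intervals that go beyond the axis. The dashed line is the pooled ratio of all 61 genes (2.68) and the dotted line that of nuclear genes without the 20 most abundant (3.20). PHC5 lies lowest at 0.680.

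Many of these genes are neighbours. Members on 1 chromosome with gaps of at most 100 kb formed 9 groups that held 25 of the 61 genes. The run with the most genes, 6, lies on chromosome 17 between 2753908 and 2837052 and holds PHC8, PHC1, PHC6, PHC7, MMP2 and MMP1. Each of the 4 pherophorins and MMP1 was detected in both libraries, and MMP2, which lies between PHC7 and MMP1, was listed at 0 in both. PHC6 stood at 0.502 reads per base in CC5325 and 0.121 in CC125, PHC1 at 0.244 in CC5325 and 0.0880 in CC125, and PHC7 at 0.113 in CC5325 and 0.0256 in CC125. PHC8 was the highest of the run in CC5325 and PHC6 in CC125. PHC8, PHC6 and MMP1 differ in CC125 by less than counting error, with an estimated 4.21, 3.14 and 3.69 reads. The run as a whole held an estimated 60.2 reads in CC5325 and 14.2 in CC125, a ratio of 2.33 (1.30 to 4.55).

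**Figure D4:**
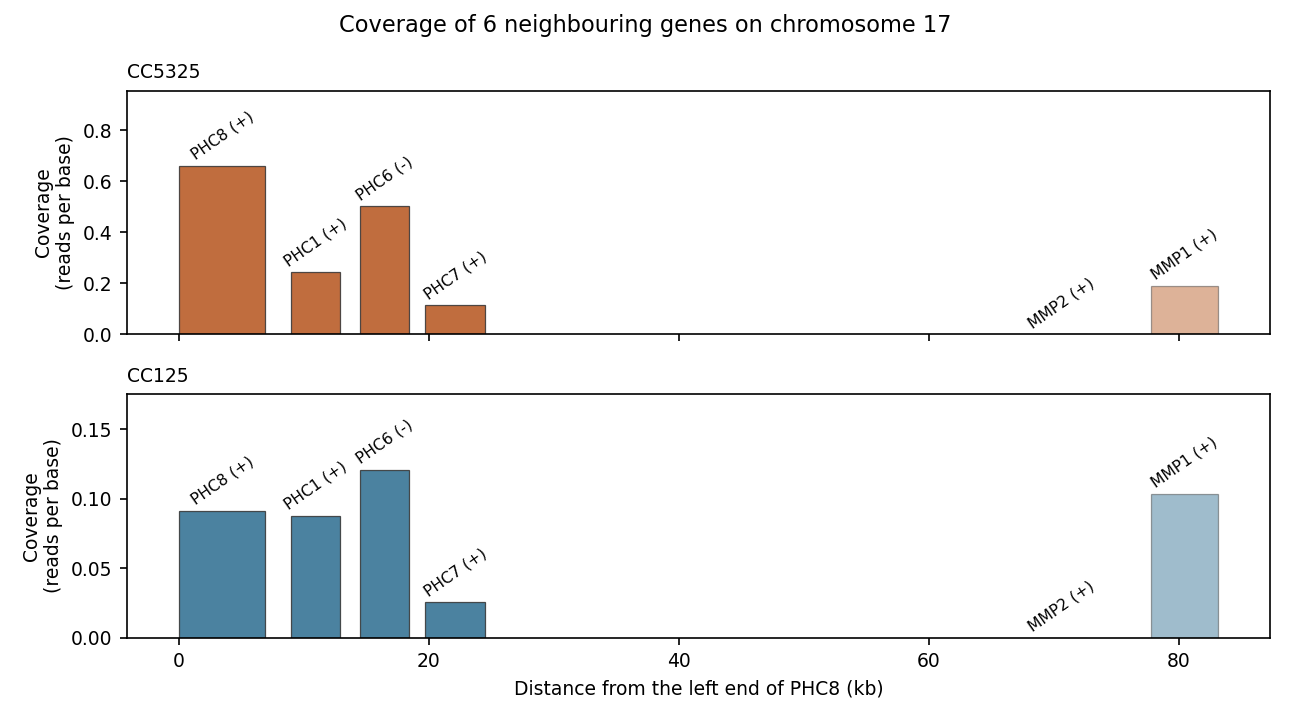
Deposited coverage in reads per base (y axis, a scale of its own for each library) of the 6 neighbouring genes on chromosome 17, drawn to scale by distance from the left end of PHC8 in kb, CC5325 above CC125. Darker bars are pherophorins, paler bars metalloproteases, and the strand stands in brackets. MMP2 is at 0 in both libraries, and PHC8 stands at 0.659 in CC5325 and 0.0913 in CC125.

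In other groups of neighbours, as on chromosome 17, coverage differed between members, in some groups by no more than counting error. On chromosome 14, PHC2 and PHC24 lie within 14.3 kb, and PHC24 reached 0.251 reads per base in CC5325 but 0 in CC125, against 1.46 in CC5325 and 0.346 in CC125 for PHC2. On chromosome 5, PHC36, PHC5 and PHC35 lie within 17.2 kb. There PHC5 had the highest coverage in both libraries, while PHC36 was listed at 0 in CC5325 and stood at 0.0274 in CC125. On chromosome 16, PHC61 beside PHC56 had 0.00775 in CC5325 and 0.00829 in CC125, under 1 read in either. On chromosome 2, PHC32, PHC33 and PHC34 had estimates of up to 1.81 reads in CC5325, and they and MMP11 were listed at 0 in CC125. PHC51 and PHC69 on chromosome 3 and PHC19 and PHC22 on chromosome 17 were detected in CC5325, and of each pair only PHC69 and PHC22 were detected in CC125. Pherophorins are related in sequence, and how reads with several matches were divided among them is not given in the sources used here, so the division between paralogs is uncertain.

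The authors' assembly placed transcript loci inside 10 of the 61 genes in CC5325, with 12 loci in all out of 1113 nuclear ones. In CC125 it placed a locus inside 1 gene, out of 194 nuclear loci. The share of all nuclear genes that hold such a locus was not taken, so these counts have no background share. The gene in CC125 was PHC2, which also had a locus in CC5325 over the same stretch. All 13 loci lie on the strand of their gene. In PHC2 the locus covers 1946634 to 1947698 in CC5325 at 4.18 reads per base, and 1946667 to 1947085 in CC125 at 2.08 reads per base. The CC125 locus thus lies inside the CC5325 one, and PHC2 had a further CC5325 locus at 1948882 to 1949385 with 2.22 reads per base. PHC15 (482 bp at 2.70 reads per base), PHC8 (1046 bp at 2.49) and PHC3 (1733 bp at 1.69) also had a locus in CC5325, as did PHC5, PHC52, VSP4, MMP1, MMP13 and MMP29. Locus coverage was 1.06 to 9.66 times gene coverage in CC5325 and 6.004 times in CC125. By the same estimate, coverage times length, 2 of the 12 CC5325 loci hold more reads than their gene: the locus in PHC3, with 19.6 against 17.6, and that in MMP29, with 4.47 against 4.37. Whether a locus and its gene count the same reads was not tested, and their values were not added together.

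Of the other genes of the wall, prolyl 4-hydroxylases make the hydroxyproline to which wall sugars are attached. Of 11 such genes (PFH), 9 were detected in CC5325 (81.8%) and 4 in CC125 (36.4%). These shares lie beside 70% and 32.6% of the nuclear genes with a symbol, so the drop between libraries is not read as a trait of the list. Of the 4 in CC125, 2 reached 1 estimated read. The list held an estimated 63.1 reads in CC5325 and 7.24 in CC125. PFH3 stood at 0.974 reads per base in CC5325, from an estimated 23.7 reads, but at 0 in CC125. PFH14 stood at 0.131 in CC5325 and 0.130 in CC125, PFH8 at 0.218 in CC5325 and 0 in CC125, and PFH10 at 0.328 in CC5325 and 0.0413 in CC125. Pooled, these genes were 4.77-fold higher in CC5325 per aligned base (2.26 to 12.8), and 1.49-fold (0.705 to 3.98) relative to nuclear reads without the 20 most abundant genes.

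A second list held 9 genes with a GAS, SAG, SAD, VLE, ISG or ZSP symbol, drawn up for gamete and zygote walls, mating agglutinins and hatching. Whether the ISG genes belong to these classes was not checked. The list had 6 genes detected in each library (66.7%), beside 70% of the nuclear genes with a symbol in CC5325 and 32.6% in CC125. Of these 6, 5 reached 1 estimated read in CC5325 and 4 in CC125. The list held an estimated 32.7 reads in CC5325 and 20.7 in CC125. GAS31 (gamete-specific hydroxyproline-rich glycoprotein) stood at 0.502 reads per base in CC5325 and 0.394 in CC125, at rank 603 in CC5325 and rank 199 in CC125. VLE1, the vegetative lytic enzyme that frees daughter cells from the mother wall, stood at 0.140 in CC5325 and 0.143 in CC125. GAS28 stood at 0.321 in CC5325 and 0.101 in CC125, and ISG2 at 0.250 in CC5325 and 0.0255 in CC125. SAG1, the plus agglutinin gene, was near the floor at 0.00583 in CC5325 and 0.0106 in CC125. GAS31 and VLE1 held most of the CC125 reads of the list, an estimated 8.48 and 7.45. Per aligned base GAS31 stood at 0.697 and VLE1 at 0.536, but GAS28 at 1.74 and ISG2 at 5.37, each with an interval that holds 1. Pooled, the ratio of this list was 0.866 per aligned base (0.483 to 1.57) and 0.270 (0.151 to 0.489) relative to nuclear reads without the 20 most abundant genes. Its interval on the first scale leaves out the 2.68 of the 61 genes, although with 1 library per strain this difference has no replicate check.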

How the data were processed

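Each library was deposited as 1 abundance table per gene. The submitters' processing notes list StringTie 2.2.3, HISAT2 2.2.1, FastQC 0.12.1 and Trimmomatic, with no settings. The deposited Coverage signal is the mean read depth per base. The deposited FPKM was taken as scaled to the aligned bases of the library. The deposited TPM is scaled by the authors' run over assembled loci. Assembled loci were kept apart from reference genes, and plastid and mitochondrial genes were left out.

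Estimated reads are Coverage times gene span over 150 bases, without exon lengths. Aligned bases are the median ratio of Coverage to FPKM. Ratios are CC5325 over CC125 with exact binomial intervals conditional on the sum of reads, and read numbers have exact Poisson intervals. These cover counting error only, and the interval code was tested on simulated data. There is no test between strains. Named genes are those with at least 5 estimated reads over both libraries, those detected in CC125, the highest of each family, and up to 4 per other list. The remaining members and SAG1 were named after their values were seen. Members and lists were chosen with earlier results of these data known. Alternatives changed the detection rule, read unit, scale, pseudocount and filter. The software was scipy 1.17.1, pandas 2.3.3 and numpy 2.4.6 in Python 3.11.15, with figures drawn in matplotlib 3.10.9.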

Additional observations from a re-analysis of the deposited data

How the results depend on the processing

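The depth limits each result: most genes rest on fewer than 5 reads, and 1 library per strain leaves culture and library variation unmeasured. Scaling to nuclear reads without the 20 most abundant genes put each pooled ratio below 1: 0.836 for all 61 genes (2.68 per aligned base), 0.885 for pherophorins (2.83), 0.997 for VSP genes (3.19) and 0.515 for metalloproteases (1.65). This follows from the scale, since those nuclear genes are 3.20-fold higher per aligned base. Scaling to all nuclear reads gave 1.47 (interval 1.13 to 1.92) for the 61 genes and 1.55 (1.15 to 2.17) for pherophorins. On that scale VSP genes stood at 1.75 (0.830 to 3.93) and metalloproteases at 0.905 (0.458 to 1.90), the last below 1. Deposited TPM gave 2.07 for the 61 genes, 2.01 for pherophorins, 3.58 for VSP genes and 1.34 for metalloproteases. Leaving out VSP4 gave 6.52 for the VSP genes, with an interval of 1.07 to 303. This ratio rests on VSP6 alone in CC125, at an estimated 1.07 reads. Counting fragments of 300 bases in place of reads gave 170 in CC5325 and 34.9 in CC125 for the 61 genes. On that count pherophorins had 127 in CC5325 and 24.6 in CC125, metalloproteases 17.8 in CC5325 and 5.91 in CC125, and VSP genes 25.3 in CC5325 and 4.33 in CC125. With at least 1 estimated read required, 11 pherophorins were detected in CC125 in place of 18, and no share of all nuclear genes was taken under that rule. The 2-fold TPM rule says nothing about stability here: no gene passed it in any setting, and with levels this far below 1 TPM none could. No paired analysis was possible because each strain has 1 library.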
